A study of Mus musculus with 5 samples.

Results

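The acid-base genes described here are 10 genes of 27998 in the deposited gene lists of a mouse kidney series, taken by symbol in each of 5 single-nucleus RNA-seq libraries and followed by nephron segment and by library. They are 4 bicarbonate carriers (Slc4a1, Slc4a4, Slc4a9 and Slc26a4), the proton pump subunits Atp6v0d2 and Atp6v1g3, the transcription factor Foxi1, the ammonia transporter Rhbg, the carbonic anhydrase Car2 and the sodium-proton exchanger Slc9a3. Each symbol matched 1 row in every library.

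The libraries came from adult male mice of 10 to 12 weeks that carried Six2-TGC, Rosa26rtTA and pTRE-H2BeGFP and ate doxycycline food at 625 mg/kg, so every group shares these alleles and this diet. The Six2 promoter is active in nephron progenitors, and nuclei of that lineage were sorted as GFP-positive. There were 3 libraries of GFP-positive nuclei after bilateral ischaemia-reperfusion injury (IRI), at 64 h, 96 h and 28 d, and 2 libraries labelled as without injury, 1 with GFP-positive nuclei and 1 with GFP-negative ones. The labels call the GFP-positive nuclei adult nephron and the GFP-negative nuclei adult non-nephron. Serum creatinine, in mg/dL, was 0.122 without injury and 0.375, 0.312 and 0.144 after IRI in order of time. Blood urea nitrogen, in mg/dL, was 26.1 without injury and 37.0, 91.8 and 31.7 after IRI. Both libraries without injury carry the same serum values and were not treated as separate animals. With 1 library per group there was no replicate check and no test of any difference. Intervals given below are exact 95% intervals and cover counting error only, and animal, sort and library cannot be told apart from condition.

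Intercalated cells are the acid-base cells of the connecting tubule and collecting duct. Type A cells secrete protons through an apical V-type ATPase and return bicarbonate to the blood through the basolateral exchanger AE1, encoded by Slc4a1. Type B and non-A, non-B cells carry the apical chloride-bicarbonate exchanger pendrin, encoded by Slc26a4, and type B cells also carry the basolateral carrier AE4, encoded by Slc4a9. Foxi1 is a forkhead factor that mouse intercalated cells need in order to form. Upstream, cells of the proximal tubule (PT) and the thick ascending limb (TAL) take bicarbonate back from the forming urine with the apical exchanger NHE3, encoded by Slc9a3. PT cells pass it on to the blood through the sodium-bicarbonate cotransporter NBCe1, encoded by Slc4a4, and cytosolic carbonic anhydrase 2, encoded by Car2, serves tubule and intercalated cells alike.

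Positions are those of the GENCODE mouse annotation on the mm10 assembly. Slc4a1 (ENSMUSG00000006574) lies at chr11:102348824-102366203 on the minus strand, Slc4a4 (ENSMUSG00000060961) at chr5:88886818-89239653 on the plus strand and Slc26a4 (ENSMUSG00000020651) at chr12:31519827-31559969 on the minus strand. Slc4a9 (ENSMUSG00000024485) is given without its position here. Atp6v0d2 (ENSMUSG00000028238) lies at chr4:19876841-19922605 on the minus strand, Atp6v1g3 (ENSMUSG00000026394) at chr1:138273738-138289462 on the plus strand and Foxi1 (ENSMUSG00000047861) at chr11:34204338-34208089 on the minus strand. Rhbg (ENSMUSG00000104445) lies at chr3:88242874-88254709 on the minus strand, Car2 (ENSMUSG00000027562) at chr3:14886273-14900770 on the plus strand and Slc9a3 (ENSMUSG00000036123) at chr13:74121457-74169442 on the plus strand. Rhbg shares 11330 bases with Gm38392 on the same strand, so reads there could be split between them, and Rhbg values are uncertain. Over all kept nuclei Rhbg had 43 UMIs (unique molecular identifiers, 1 per counted transcript) in GFP-positive nuclei without injury, 38, 12 and 44 after IRI in order of time, and 129 in GFP-negative nuclei, where Gm38392 had 81, 61, 70, 61 and 56.

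The promoters of Slc26a4 and Atp6v1g3 are shown because, within the set of 10, these 2 genes had the most alike levels across segments on the log2(CPM + 1) scale (described below). On the log2(CPM + 10) scale Atp6v0d2 was the gene most like Slc26a4 instead. Each line gives the 250 bases before the RefSeq transcription start on the gene's own strand, GRCm38.p6 build, for Slc26a4 at chr12:31559985-31560234 on the minus strand and for Atp6v1g3 at chr1:138273488-138273737 on the plus strand.
Slc26a4: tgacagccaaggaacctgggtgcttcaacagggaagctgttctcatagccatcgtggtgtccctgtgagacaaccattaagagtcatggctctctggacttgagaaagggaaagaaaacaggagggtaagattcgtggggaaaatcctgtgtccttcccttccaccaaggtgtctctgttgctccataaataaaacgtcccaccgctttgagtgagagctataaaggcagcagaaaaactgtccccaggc
Atp6v1g3: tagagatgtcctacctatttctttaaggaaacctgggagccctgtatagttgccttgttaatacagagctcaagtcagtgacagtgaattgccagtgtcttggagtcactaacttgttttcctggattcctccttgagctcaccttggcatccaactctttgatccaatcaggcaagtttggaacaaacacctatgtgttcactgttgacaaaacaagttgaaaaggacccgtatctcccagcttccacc
The RefSeq promoter table used here gave 6 promoters for 5 of the 10 genes (Atp6v1g3, Foxi1, Slc26a4, Slc9a3 and 2 starts of Slc4a4). The forkhead string TNTTTAC was searched on both strands of these windows and was in none of the 6, so no base is in capitals. Of 32851 RefSeq promoter windows of the same length, 3582 (10.9%) held it. An HNF1 motif of 10 bases, held by 0.371% of all windows, and an unnamed string of 9 bases, held by 0.381%, were searched in the same way and were also in none of the 6. These letters can overlap other motifs, and their absence from a window bears on no factor.

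Kept GFP-positive nuclei numbered 3508 without injury and 3012, 3202 and 3299 after IRI in order of time, and 3338 GFP-negative nuclei were kept. The library at 96 h was the shallowest, with a median of 507 UMIs per nucleus, and the other 4 had medians of 964.5 to 1793.5. Between 9 and 20 cell barcodes were shared by any pair of libraries. Nuclei were clustered without the 10 genes, and clusters were named from markers that exclude them, so a gene's level in a segment was not used to define it. The label of GFP-negative nuclei as non-nephron did not hold for all of them: that library held 384 PT-like and 484 TAL-like nuclei of 3338. In the GFP-positive library without injury, 2309 of 3508 nuclei were PT-like and 46 were intercalated-like, against 384 and 178 in the GFP-negative library. Levels below are UMIs scaled to the summed UMIs of the named nuclei (CPM), and genes are not compared with each other in level, because 3' nuclear counts also depend on a gene's length and internal priming.

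Of the intercalated genes, Slc26a4 had the highest share of its UMIs in intercalated-like nuclei without injury, close to that of Atp6v0d2. Slc26a4 stood at 3184 CPM in GFP-positive intercalated-like nuclei, with 328 UMIs, and at 3593 CPM in GFP-negative ones, with 878 UMIs. GFP-positive intercalated-like nuclei held 94% of the Slc26a4 UMIs and 86.5% of the Atp6v0d2 UMIs of their library, against 91.9% and 91.7% for GFP-negative ones. Outside them Slc26a4 was at most 4.74 CPM in the GFP-positive segments named in the plot of levels by segment, and in GFP-negative nuclei the next level there was 131 CPM in distal convoluted tubule (DCT)-like nuclei, on 34 UMIs. Podocyte-like nuclei of that library, 23 in number, had 271 CPM on 10 UMIs.

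Slc4a9 showed 1427 CPM in GFP-positive and 2087 CPM in GFP-negative intercalated-like nuclei, on 147 and 510 UMIs. Intercalated-like nuclei held 80.8% of Slc4a9 UMIs in the GFP-positive library and 87% in the GFP-negative library. The proton pump subunit Atp6v0d2, a kidney form of the d subunit of the membrane sector, showed 621 CPM in GFP-positive and 1129 CPM in GFP-negative intercalated-like nuclei. Atp6v1g3, a kidney form of the G subunit of the cytosolic sector, showed 660 CPM in GFP-positive and 876 CPM in GFP-negative ones. Foxi1 had few UMIs, 11 in GFP-positive and 60 in GFP-negative intercalated-like nuclei, at 107 and 246 CPM. For these genes every other segment plotted stood at or below 57.9 CPM in both libraries. Read against the rest of the GFP-negative library, the level in intercalated-like nuclei was 98.9-fold for Slc4a9 (77.6 to 128), 168-fold for Slc26a4 (133 to 215), 163-fold for Atp6v0d2 (108 to 256), 42.6-fold for Atp6v1g3 (32.6 to 56.3) and 80.4-fold for Foxi1 (41.9 to 170).

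Slc4a1, also known from red cells, was sparser. It stood at 68 CPM on 7 UMIs in GFP-positive intercalated-like nuclei and at 389 CPM on 95 UMIs in GFP-negative ones. In the GFP-positive library 50% of Slc4a1 UMIs lay in PT-like nuclei, at 5.12 CPM, and 14% in intercalated-like nuclei; of GFP-negative Slc4a1 UMIs, intercalated-like nuclei held 60.1%. Of 6 red cell markers, 1 was detected in each set of intercalated-like nuclei, at 1 UMI in GFP-positive and 3 UMIs in GFP-negative nuclei. In PT-like nuclei 5 of them were detected in the GFP-positive library, at 78 UMIs (16 CPM), against 4 in the GFP-negative library, at 15 UMIs (17.5 CPM), and their part in the Slc4a1 level there was not tested.

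Rhbg, a basolateral ammonia transporter of the distal nephron, was split between segments. It stood at 155 CPM in GFP-positive and 336 CPM in GFP-negative intercalated-like nuclei, and at 66.9 CPM (38.2 to 109) and 105 CPM (52.2 to 187) in the connecting tubule (CNT)-like nuclei of the same libraries. CNT-like nuclei held 37.2% of Rhbg UMIs in the GFP-positive library, the same share as intercalated-like nuclei, and 8.53% in the GFP-negative library, where intercalated-like nuclei held 63.6%.

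The tubule genes had other patterns. Slc4a4 stood at 1722 CPM in GFP-positive PT-like nuclei and at 986 CPM in GFP-negative ones, and these nuclei held 85% and 72.4% of its UMIs. Among the other plotted segments of GFP-positive nuclei, Slc4a4 was lowest in TAL-like nuclei, at 126 CPM, and reached 800 CPM in principal-like and 1129 CPM in endothelium-like nuclei, where the GFP-negative library showed 62, 90.8 and 83.7 CPM. The median depth of endothelium-like nuclei was 2252.5 UMIs in the GFP-positive library, against 520 UMIs in the GFP-negative library, and the part of depth or of PT transcripts in these levels was not tested.

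Slc9a3 was highest in TAL-like nuclei in both libraries. It stood at 496 CPM on 197 UMIs in GFP-positive TAL-like nuclei and at 452 CPM on 277 UMIs in GFP-negative ones, against 73.9 and 45.4 CPM in PT-like nuclei. TAL-like over PT-like, the ratio was 6.71 (5.61 to 8.01) in GFP-positive nuclei, where 28.6% of 11064 genes were at least 1.5-fold higher, and 9.95 (7.1 to 14.3) in GFP-negative nuclei, where 25.7% of 8779 genes were. This comparison was added after values had been seen, as were those below of intercalated subtypes, of intercalated-like nuclei between sorts, of nuclei without PT transcripts, of single clusters and of TAL-like nuclei after IRI. Car2 was the most evenly spread: intercalated-like nuclei stood at 272 CPM in GFP-positive and 282 CPM in GFP-negative nuclei, TAL-like nuclei at 149 and 99.6 CPM, PT-like nuclei at 140 and 46.6 CPM and principal-like nuclei at 109 and 128 CPM. The counting intervals of Car2 overlapped between TAL-like, PT-like, CNT-like and principal-like GFP-positive nuclei.

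**Figure D1:**
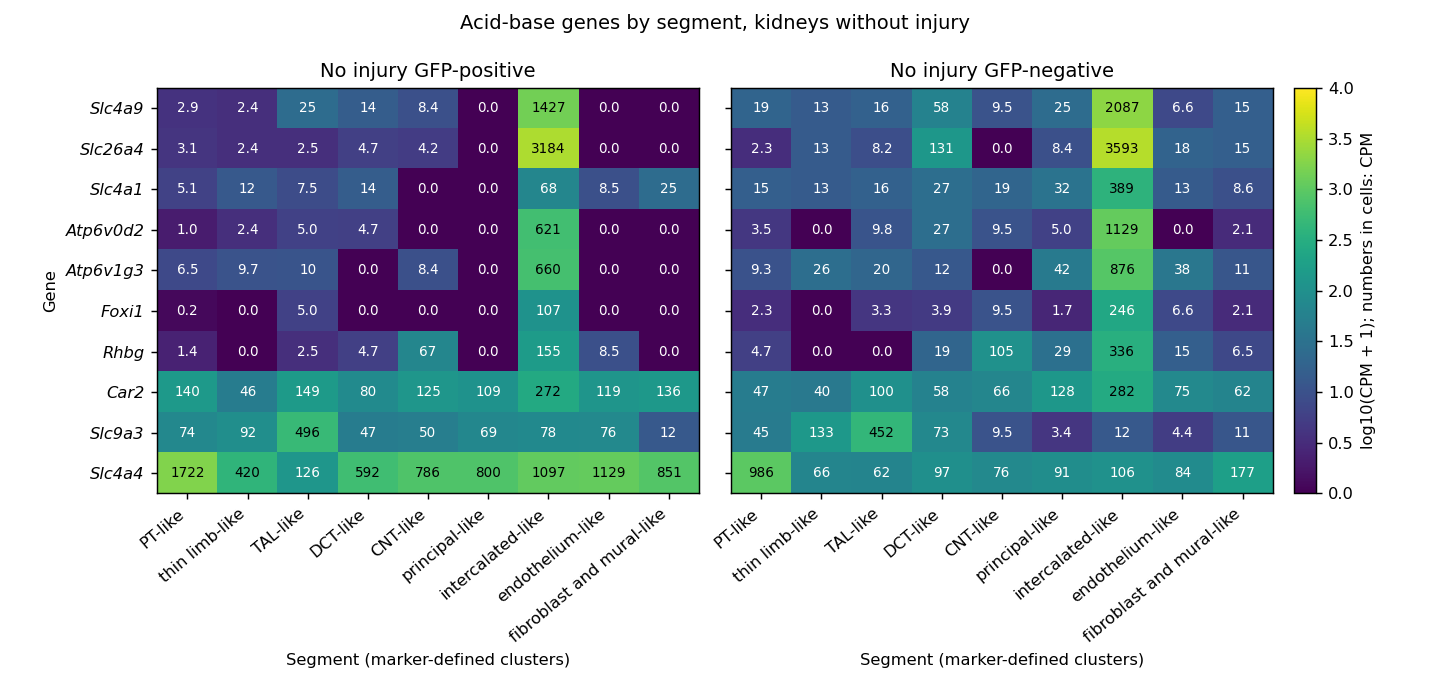
Heat maps of the 10 genes (rows) by marker-named segment (columns) in GFP-positive (left) and GFP-negative (right) nuclei without injury; colour is log10(CPM + 1) and the number in each cell is CPM. The intercalated-like column is the highest for Slc4a9, Slc26a4, Slc4a1, Atp6v0d2, Atp6v1g3, Foxi1, Rhbg and Car2 in both libraries, the TAL-like column for Slc9a3 and the PT-like column for Slc4a4.

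Depth differed between segments, so shares of nuclei with a UMI were also taken after thinning each nucleus to 400 UMIs and leaving out shallower ones. In GFP-negative intercalated-like nuclei Slc4a9 was then detected in 42.7%, Atp6v0d2 in 38.2%, Slc26a4 in 32.6%, Rhbg in 19.7%, Slc4a1 in 14% and Foxi1 in 8.43% of nuclei. Slc9a3 was detected in 0 of them, which allows a share of up to 2.05%. As a measure of background, Slc26a4 was detected in at most 0.204% of PT-like nuclei of any library at that depth. Slc4a4 was detected in 48.5% of GFP-positive PT-like nuclei without injury, in 17.1% of CNT-like and in 3.12% of TAL-like nuclei of the same library.

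The sort for GFP asks which of these genes the Six2 lineage holds. Over all nuclei, GFP-positive against GFP-negative, 1 of the 10 genes was at least 1.5-fold higher and 7 were at most 0.667-fold, where 10.6% of 14012 genes were that much higher and 37.6% that much lower. Genes entered such counts when both sums together held at least 20 UMIs. Slc4a4 was the higher one, at 1383 CPM in GFP-positive and 304 CPM in GFP-negative nuclei, a ratio of 4.55 (4.28 to 4.83). The 7 lower ones were the genes of intercalated cells: Slc26a4 at 48.8 against 248 CPM (ratio 0.196, 0.173 to 0.222), Slc4a9 at 25.4 against 152 CPM (0.167, 0.141 to 0.198), Slc4a1 at 6.99 against 41.1 CPM (0.17, 0.121 to 0.235), Atp6v0d2 at 10.3 against 78.3 CPM (0.132, 0.101 to 0.171), Atp6v1g3 at 15.4 against 74.9 CPM (0.205, 0.163 to 0.257), Rhbg at 6.01 against 33.5 CPM (0.179, 0.124 to 0.255) and Foxi1 at 2.1 against 18.5 CPM (0.114, 0.0604 to 0.2). Car2 stood at 132 against 90.7 CPM (1.46, 1.29 to 1.65) and passed the limit, at 1.9, when libraries were scaled by TMM, which shifts this comparison by 0.38 on the log2 scale. Slc9a3 stood at 103 against 95.2 CPM, a ratio of 1.08 (0.951 to 1.23). The median of all genes was −0.32 on the log2 scale. With TMM scaling 20.4% of genes were higher and 24.3% lower.

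The number of intercalated-like nuclei moved with this result. In the GFP-positive library 1.31% of nuclei were of this kind (0.962% to 1.75%), against 5.33% in the GFP-negative library (4.59% to 6.15%). Within intercalated-like nuclei, GFP-positive against GFP-negative, 1 of 9 genes counted was higher and 4 were lower, where 20.4% of 3476 genes were higher and 26.2% lower. Slc4a4 was the higher one, at 1097 against 106 CPM, and the lower ones were Slc4a1 (0.175, 0.0684 to 0.374), Foxi1 (0.435, 0.206 to 0.835), Rhbg (0.463, 0.253 to 0.797) and Atp6v0d2 (0.55, 0.412 to 0.724). Slc26a4 was 0.886 (0.778 to 1.01) and Slc4a9 0.684 (0.565 to 0.823). A sub-cluster of intercalated-like nuclei that also held PT transcripts took in 22 of 46 GFP-positive nuclei, against 4 of 178 GFP-negative ones, and it held 111 of the 113 Slc4a4 UMIs of the GFP-positive ones. Without that sub-cluster Slc26a4 was 1.79 (1.53 to 2.09), Atp6v0d2 1.01 (0.691 to 1.43), Foxi1 1.04 (0.427 to 2.18) and Slc4a9 1.35 (1.07 to 1.69). Slc4a1 then had 0 UMIs in 24 GFP-positive nuclei, against 90 UMIs in 174 GFP-negative nuclei. In this smaller set 19.5% of 2614 genes were higher and 26.8% lower. Slc26a4, Slc4a9, Atp6v0d2 and Foxi1 were thus below 1 with the sub-cluster and above 1 without it, while Slc4a1 and Rhbg were below 1 both ways, Rhbg at 0.649 (0.253 to 1.4) without it.

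**Figure D2:**
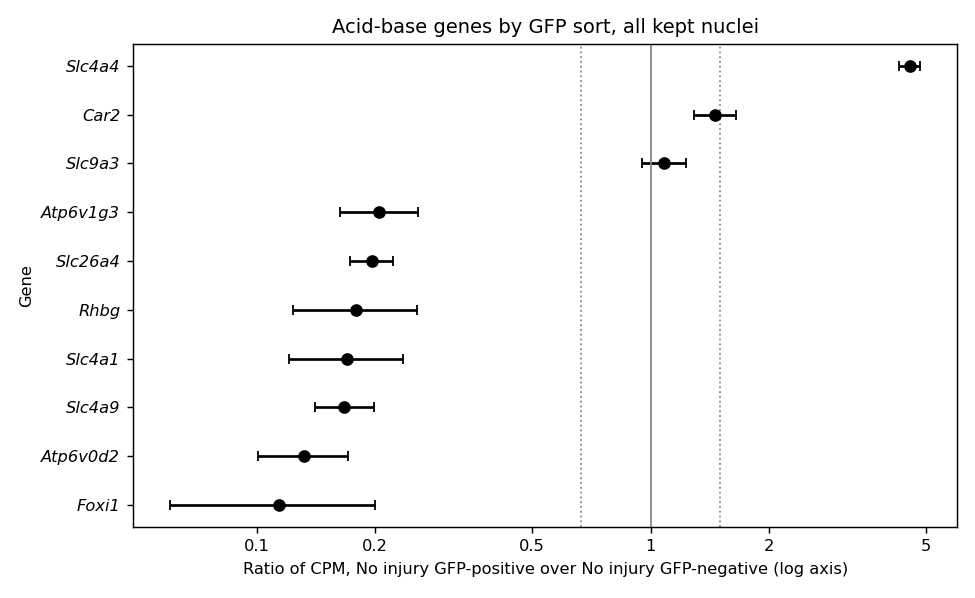
Ratio of CPM in GFP-positive over GFP-negative nuclei without injury for each of the 10 genes, on a log axis, with exact 95% intervals for counting error as bars and dotted lines at the 1.5-fold limits. Over all nuclei Slc4a4 lies at 4.55, Car2 and Slc9a3 lie between the limits, and the other 7 genes lie between 0.114 and 0.205.

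Intercalated-like nuclei numbered 358 over the 5 libraries and were clustered again, without the 10 genes. One sub-cluster of 106 nuclei was named type A-like and another of 112 nuclei type B and non-A-like, each from markers outside the set. The type A-like sub-cluster was led by Slc26a7, a type A chloride-bicarbonate exchanger, and held 93 GFP-negative nuclei, against 6 GFP-positive nuclei without injury and 1, 3 and 3 after IRI in order of time. The other was led by Plxna4 and Hmx2 and held 61 GFP-negative and 12 GFP-positive nuclei without injury and 17, 9 and 13 after IRI. A sub-cluster of 85 nuclei led by Ankrd1 and S100a6 stayed unnamed, and the remaining 55 nuclei were those with PT transcripts.

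The chloride-bicarbonate exchangers divided these sub-clusters, and the proton pump subunits did not. Type A-like over type B and non-A-like, 2 of 8 genes counted were higher and 3 lower, where 20.3% of 2719 genes were higher and 19.2% lower. Slc4a1 stood at 627 CPM in type A-like and 31.6 CPM in type B and non-A-like nuclei, a ratio of 19.9 (8.14 to 63). All 74 Slc4a1 UMIs of type A-like nuclei came from the GFP-negative library. The 6 GFP-positive type A-like nuclei without injury held 0 Slc4a1 UMIs and 21 Slc26a4 UMIs, the latter in 1 nucleus, so Slc4a1 did not bear out the name there. Rhbg stood at 526 against 164 CPM (3.2, 1.99 to 5.27). Slc26a4 stood at 331 against 7387 CPM (0.0448, 0.0317 to 0.0616), and its 39 UMIs in type A-like nuclei came from 3 nuclei of 106, while 106 of 112 type B and non-A-like nuclei held it. Slc4a9 stood at 806 against 3336 CPM (0.241, 0.192 to 0.301), and 40 type A-like nuclei held it. Foxi1 stood at 195 against 354 CPM (0.551, 0.324 to 0.91). Atp6v0d2 was 1153 against 1169 CPM (0.986, 0.785 to 1.24), Atp6v1g3 was 941 against 992 CPM (0.949, 0.737 to 1.22) and Car2 was 246 against 297 CPM (0.828, 0.503 to 1.34).

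Type A-like nuclei came mostly from the GFP-negative library, so the comparison was repeated within it, with 93 against 61 nuclei. Slc4a1 was 17.8-fold higher there (6.67 to 67.1), Rhbg 3.79-fold (2.12 to 7.19), Slc4a9 was 0.222-fold (0.174 to 0.282), Slc26a4 0.0192-fold (0.0109 to 0.0314) and Foxi1 0.494-fold (0.269 to 0.882), where 22.9% of 2063 genes were higher and 19.5% lower. Atp6v0d2 was 1.01-fold (0.778 to 1.32) and Atp6v1g3 1.04-fold (0.772 to 1.39). Each gene stayed on its side of the limits.

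Summed over the 5 libraries, the unnamed sub-cluster held both exchangers, with Slc4a1 at 225 CPM, Slc26a4 at 2748 CPM and Slc4a9 at 1724 CPM. Its Slc26a4 UMIs lay in 34 nuclei and its Slc4a1 UMIs in 13 nuclei, with 0 nuclei holding both. The libraries differed: 12 of the 18 Slc4a1 UMIs came from the GFP-negative library, and 133 of the 220 Slc26a4 UMIs from the library at 64 h. The sub-cluster with PT transcripts stood apart in depth, with a median of 2589 UMIs per nucleus, and held the PT markers Slc34a1 at 2460 CPM and Lrp2 at 844 CPM beside Slc4a4 at 1269 CPM. Type B and non-A-like nuclei, the deepest of the others, had a median of 1317.5 UMIs and Slc4a4 at 50.5 CPM.

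Within the type B and non-A-like nuclei the GFP sort could be read apart from type A-like nuclei. Type B and non-A, non-B cells were not separated there. GFP-positive against GFP-negative, Slc26a4 stood at 8146 against 7648 CPM (1.07, 0.892 to 1.26), Slc4a9 at 3403 against 3509 CPM (0.97, 0.734 to 1.26) and Atp6v0d2 at 980 against 1097 CPM (0.893, 0.519 to 1.46), on 12 and 61 nuclei. Atp6v1g3 was 1.59 (0.993 to 2.46) and Car2 2.08 (0.895 to 4.46), the 2 genes past the limit, where 20% of 1038 genes were higher and 25.4% lower.

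Nucleus by nucleus, Slc4a1 and Slc26a4 were seldom detected together. Of 358 intercalated-like nuclei, 74 held Slc4a1, 170 held Slc26a4 and 5 held both, which is 6.76% of the Slc4a1 nuclei and 2.94% of the Slc26a4 nuclei. Slc4a9 was shared more widely: 157 nuclei held it with Slc26a4, 64.6% of the 243 Slc4a9 nuclei and 92.4% of the Slc26a4 nuclei, and 38 held it with Slc4a1, 51.4% of the Slc4a1 nuclei. In type A-like nuclei 18 of 44 with Slc4a1 also held Slc4a9. Atp6v0d2 was held by 254 nuclei and Atp6v1g3 by 219, and 163 held both. A nucleus without a UMI can still express a gene at these depths.

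**Figure D3:**
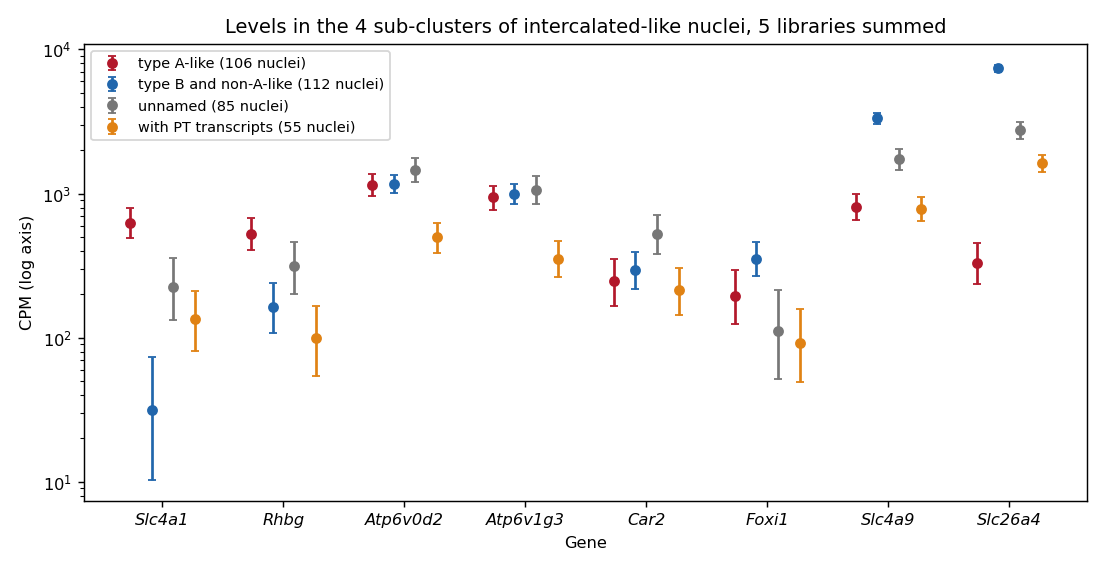
CPM of the intercalated genes in each sub-cluster of intercalated-like nuclei over all 5 libraries, on a log axis, with 95% Poisson intervals as bars. Slc4a1 and Rhbg are highest in the type A-like sub-cluster, Slc26a4 and Slc4a9 in the type B and non-A-like sub-cluster, and Atp6v0d2 and Atp6v1g3 differ little between those 2. The Slc4a1 UMIs of the type A-like sub-cluster all come from the GFP-negative library.

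Likeness was measured as Pearson's r of log2(CPM + 1) over 21 segment-by-library points without injury, as a description: the points share libraries, depth and clustering genes. The gene most like Slc26a4 was Clnk, at r = 0.905 (Spearman's rho 0.740), followed by Atp6v1g3 at 0.880 (0.873) and Lsamp at 0.868 (0.735). Clnk was among the markers that named intercalated-like and type A-like nuclei. It stood at 924 CPM in type A-like and 215 CPM in type B and non-A-like nuclei. Slc4a9 was most like Slc26a4, at 0.866 (0.692), and Atp6v0d2 most like Tshr, at 0.887 (0.755). Foxi1 was most like Gm12121, at 0.890 (0.682), a gene 60917 bases away on the opposite strand. Slc4a1 was most like Ncald, at 0.805 (0.752), and Rhbg most like Itpr2, at 0.852 (0.766). Among tubule genes, Slc4a4 was most like Kcnj15, at 0.959 (0.916), and Slc9a3 most like Stxbp4, at 0.836 (0.739). Car2 had the lowest leading value, 0.748 (0.644) with Suclg2.

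The libraries after IRI ask how the same genes stood during injury and repair. In PT-like nuclei, Car2 was the gene that stood out at 64 h. It had 140 CPM without injury, then 288 CPM (64 h), 99.8 CPM (96 h) and 166 CPM (28 d), on 682, 852, 137 and 400 UMIs. Over GFP-positive PT-like nuclei without injury, the 64 h ratio was 2.06 (1.86 to 2.28), the 96 h ratio 0.715 (0.591 to 0.861) and the 28 d ratio 1.19 (1.05 to 1.35). With TMM scaling the ratios were 1.77, 0.535 and 1.1, so Car2 passed the lower limit at 96 h under that scaling. Slc4a4 had 1722 CPM without injury, then 1819 CPM (64 h), 955 CPM (96 h) and 1250 CPM (28 d), with ratios of 1.06 (1.02 to 1.09), 0.555 (0.523 to 0.588) and 0.726 (0.696 to 0.757). The lowest level of Slc4a4 was in the library of lowest depth. Slc9a3 was at 73.9, 52.7, 49.6 and 59.7 CPM in the same order, with ratios of 0.713 (0.587 to 0.863), 0.671 (0.51 to 0.871) and 0.808 (0.661 to 0.983). With TMM scaling Slc9a3 was 0.614 at 64 h and 0.502 at 96 h, past the limit at both times.

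Of the genes with at least 20 UMIs in these sums, 2 of 6 were higher and 0 lower at 64 h, 2 of 6 higher and 2 lower at 96 h, and 2 of 7 higher and 1 lower at 28 d. Over all genes 25.2% were higher and 13.2% lower at 64 h, 37.5% and 14.8% at 96 h, and 14.3% and 10% at 28 d. The median of all genes stood at 0.16, 0.28 and 0.06 on the log2 scale at the 3 times, and TMM shifts these comparisons by −0.22, −0.42 and −0.12. Under TMM the split over all genes was 16.8% higher and 19.6% lower at 64 h, 22.7% and 29.4% at 96 h, and 10.6% and 13.7% at 28 d. The other genes past the limit were intercalated genes with few UMIs in PT-like nuclei. Slc4a1 was higher at all 3 times, on 27, 12 and 22 UMIs, and Slc4a9 at 96 h and 28 d, on 8 and 12 UMIs. Atp6v1g3 was lower at 96 h and 28 d, on 4 and 9 UMIs. The interval of each of these ratios included 1, and the part of background in these counts was not tested.

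PT-like nuclei were a mixture of clusters that differed between libraries. At 64 h, 761 and 702 of 1959 PT-like nuclei lay in 2 clusters, and at 96 h, 437 and 1588 of 2392 lay in 2 others, the first led by 1700034P13Rik with Brca2 and the second by Fgg with C3. Injured tubule markers moved with time too: the summed level of 6 such markers in PT-like nuclei was 11.3 CPM without injury and 121, 262 and 28.2 CPM after IRI, and their part in the results was not tested. Over the 5 clusters with at least 20 nuclei from both libraries, the Car2 ratios at 64 h were 1.58 to 2.43. These clusters share the same libraries and are not replicates, and the share of all genes past the limit was not taken in them. The cluster led by Cyp2a5 had 10 Car2 UMIs in 24 nuclei without injury, at 181 CPM (86.6 to 332), against 308 CPM (280 to 338) at 64 h. In the cluster led by Fgg and C3, which held 10 nuclei without injury and 156 at 64 h, Car2 at 64 h was 148 CPM (90.2 to 228). Slc4a4 at 28 d was 0.687 to 0.752 in each of the 6 clusters of that size. At 96 h, Slc4a4 was 0.712 (0.597 to 0.844) in the cluster with most Slc4a4 UMIs at that time among the 5 of that size, and 0.297 to 0.808 over those 5. The 2 clusters that held most nuclei at 96 h were under that size without injury and gave no ratio, and Slc4a4 stood in them at 752 and 969 CPM at 96 h. In the clusters that gave ratios, the median ratio of all genes counted was 1.03 to 1.29 at 64 h. It was 0.93 to 1.78 at 96 h and 1.01 to 1.06 at 28 d.

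Along the PT, the cluster led by Gldc and Slc5a2, among others, which had the highest score for markers of the first segment (S1), held more of all 3 tubule genes than the cluster led by Cyp7b1, which had the highest score for the last segment (S3). The S3-scored over the S1-scored cluster, in GFP-positive nuclei without injury, Slc4a4 stood at 642 against 2447 CPM (0.262, 0.235 to 0.292), Car2 at 45.6 against 118 CPM (0.386, 0.246 to 0.585) and Slc9a3 at 13.5 against 102 CPM (0.133, 0.0561 to 0.27), where 23% of 8384 genes were higher and 15.5% lower. In GFP-negative nuclei the ratios were 0.156 (0.131 to 0.185), 0.0868 (0.0312 to 0.212) and 0.026 (0.00295 to 0.107), where 31.8% of 5752 genes were higher and 18.6% lower. The 3 genes were thus lower in the S3-scored cluster in both libraries.

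In TAL-like nuclei Slc9a3 was lower after IRI. It had 496 CPM without injury, then 217 CPM (64 h), 266 CPM (96 h) and 304 CPM (28 d), on 197, 51, 8 and 36 UMIs. The ratios to GFP-positive TAL-like nuclei without injury were 0.438 (0.315 to 0.599) at 64 h and 0.613 (0.417 to 0.878) at 28 d, where 13.6% and 15.3% of genes were lower and 18.8% and 19.1% higher. The value at 96 h, 0.537 (0.229 to 1.08), where 39.8% of genes were lower and 21.3% higher, rested on 67 shallow nuclei and turned to 1.77 when only nuclei with at least 400 genes were kept. Thinned to 400 UMIs, Slc9a3 was detected in 18.4% of TAL-like nuclei without injury and in 9%, 7.32% and 12.7% after IRI. Car2 in TAL-like nuclei was at 149, 183, 0 and 67.5 CPM in the same order, and its ratio at 28 d was 0.455 (0.188 to 0.956) on 8 UMIs. The 0 at 96 h came from the same 67 shallow nuclei and cannot be read as absence.

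**Figure D4:**
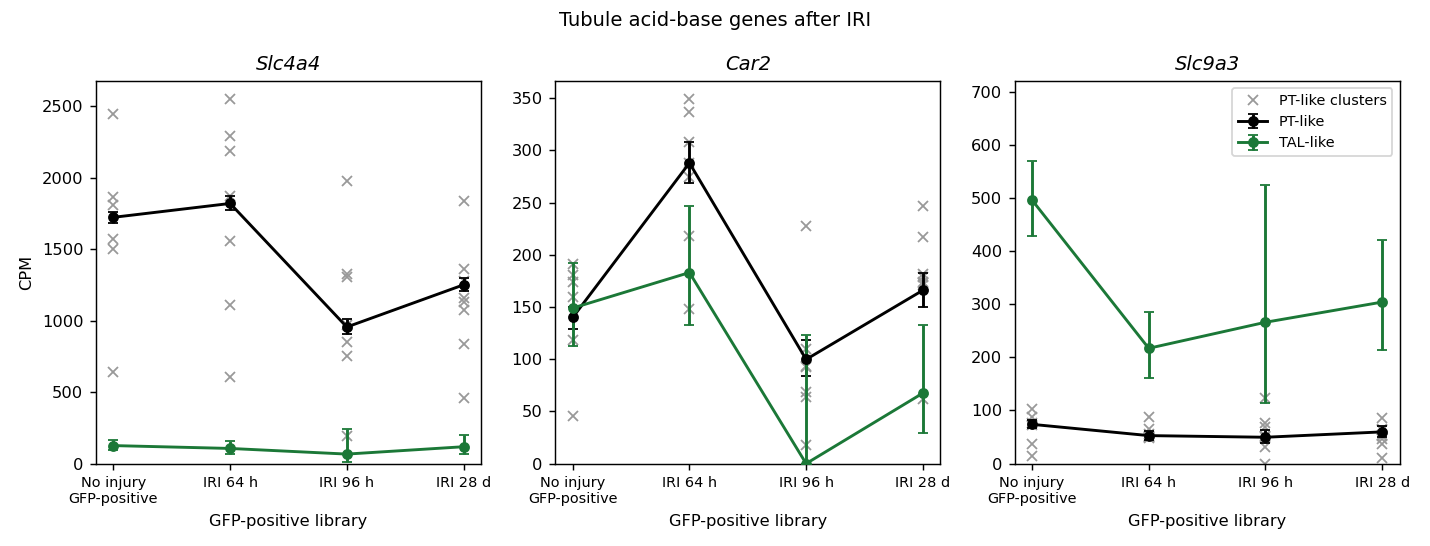
CPM of Slc4a4, Car2 and Slc9a3 in PT-like (black) and TAL-like (green) nuclei of the GFP-positive libraries in order of time; bars are 95% Poisson intervals and grey crosses are PT-like clusters with at least 20 nuclei. Car2 in PT-like nuclei is highest at 64 h, at 288 CPM, Slc4a4 lowest at 96 h, at 955 CPM, and the TAL-like Slc9a3 level at 96 h rests on 8 UMIs.

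Tubule nuclei led by injury genes (Vcam1 and Havcr1), kept apart from the PT-like class, numbered 69 without injury and 219, 209 and 306 after IRI in order of time. Slc4a4 stood in them at 929 CPM without injury, then 537 CPM (64 h), 368 CPM (96 h) and 795 CPM (28 d). At each time this was below the level in PT-like nuclei of the same library. Among segments these nuclei scored highest for thin limb markers, at 1.14, and their segment of origin was not settled.

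Intercalated-like nuclei after IRI were few: the GFP-positive libraries held 46 without injury and 62, 23 and 49 after IRI in order of time. The proton pump subunit Atp6v0d2 had 621 CPM without injury, then 1302 CPM (64 h), 1410 CPM (96 h) and 851 CPM (28 d), with ratios of 2.1 (1.51 to 2.92), 2.27 (1.27 to 3.88) and 1.37 (0.936 to 2). Atp6v1g3 was at 660, 1166, 627 and 426 CPM in the same order, with ratios of 1.77 (1.27 to 2.46), 0.949 (0.394 to 1.98) and 0.645 (0.397 to 1.02). Slc26a4 was at 3184, 3905, 2114 and 2144 CPM, with ratios of 1.23 (1.04 to 1.44), 0.664 (0.431 to 0.984) and 0.673 (0.547 to 0.825). Slc4a9 was at 1427, 1464, 2114 and 1261 CPM and passed no limit. Foxi1 was at 1.9 (0.817 to 4.58) at 64 h and 1.92 (0.794 to 4.73) at 28 d, on 11 UMIs without injury and 15 and 13 after IRI, and both intervals include 1. Slc4a4 was lower at each time, at 0.26, 0.0714 and 0.532, and Rhbg and Car2 passed the limit at 96 h on 4 and 6 UMIs. Of the Slc4a4 UMIs in intercalated-like nuclei, the sub-cluster with PT transcripts held 111 of 113 without injury. After IRI it held 17 of 21, 1 of 1 and 37 of 37 in order of time.

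Of genes with at least 20 UMIs, 3 of 8 were higher and 1 lower at 64 h, 3 of 7 higher and 2 lower at 96 h, and 1 of 8 higher and 2 lower at 28 d. The shares over all genes were 22.1% higher and 21.9% lower at 64 h, 16.1% and 44.9% at 96 h, and 16.2% and 16.8% at 28 d. With TMM scaling 2.63% of genes were higher and 76% lower at 96 h, and 10.3% and 25% at 28 d.

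The counts of higher genes moved with the sub-cluster with PT transcripts, which made up 47.8% of intercalated-like nuclei without injury and 6.45%, 8.7% and 46.9% after IRI. Without it 24 nuclei were left without injury and 58, 21 and 26 after IRI, and 0 of the 7, 5 and 5 genes with at least 20 UMIs were higher in order of time, where 24.4%, 16.7% and 18.1% of all genes were. Foxi1 at 28 d then stood at 417 CPM, against 256 CPM without injury (1.63, 0.533 to 4.98), on 8 UMIs each, and was no longer counted for want of UMIs, and Rhbg at 28 d was also 1.63 (0.488 to 5.45), on 7 UMIs each. Atp6v0d2 was then 1.24 (0.835 to 1.89), 1.44 (0.758 to 2.63) and 1.36 (0.808 to 2.27), and Atp6v1g3 was 1.07 (0.724 to 1.6), 0.533 (0.202 to 1.2) and 0.611 (0.314 to 1.13). Slc26a4 was lower at each time, with 6649 CPM without injury, then 4165 CPM (64 h), 2435 CPM (96 h) and 3751 CPM (28 d), and ratios of 0.626 (0.519 to 0.756), 0.366 (0.232 to 0.556) and 0.564 (0.425 to 0.741). Slc4a9 was lower at 64 h, at 0.572 (0.426 to 0.769), and was 0.846 (0.521 to 1.33) at 96 h and 0.833 (0.571 to 1.2) at 28 d. Over all genes 17.7%, 38.5% and 21.9% were lower at the 3 times. The mix of subtypes moved with this as well: the unnamed sub-cluster led by Ankrd1 and S100a6 made up 40 of 62 intercalated-like nuclei at 64 h, against 6 of 46 without injury, and its part in the result was not tested. Type B and non-A-like nuclei alone numbered 12 without injury and 17, 9 and 13 after IRI. Slc26a4 stood in them at 8146 CPM (6925 to 9520) without injury. After IRI it stood there at 6191 CPM (5133 to 7403), 4209 CPM (2452 to 6739) and 6804 CPM (5324 to 8569). Slc4a9 stood there at 3403, 2992, 1238 and 2930 CPM in the same order, with 5 UMIs at 96 h.

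**Figure D5:**
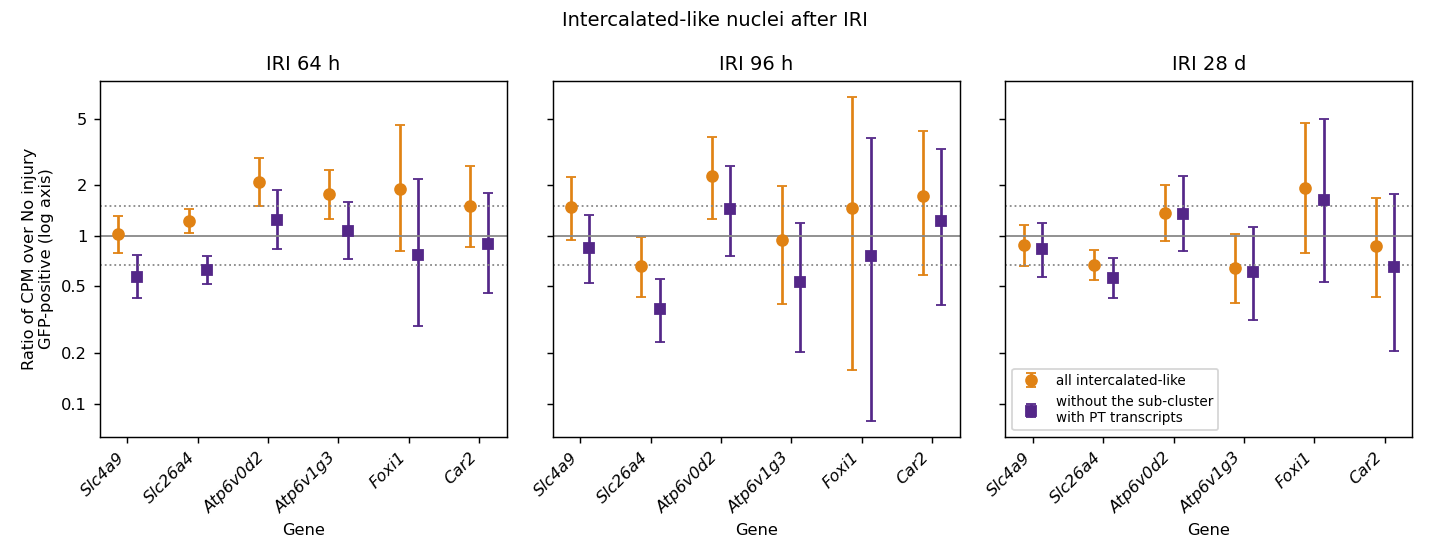
Ratio of CPM in intercalated-like nuclei at each time after IRI over GFP-positive ones without injury, on a log axis, for 6 genes, with exact 95% intervals for counting error as bars and dotted lines at the 1.5-fold limits; circles are all such nuclei and squares those without the sub-cluster with PT transcripts. At 64 h Atp6v0d2 lies at 2.1 as a circle and 1.24 as a square, and Slc26a4 at 1.23 and 0.626.

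Over all GFP-positive nuclei after IRI, where segment mix and level per nucleus cannot be told apart, Slc9a3 was lower at each time, with 103 CPM without injury, then 60.4 CPM (64 h), 44.7 CPM (96 h) and 63.2 CPM (28 d). Its ratios were 0.588 (0.51 to 0.677), 0.435 (0.343 to 0.547) and 0.615 (0.529 to 0.713), where 12.1%, 15.8% and 10.4% of genes were lower. Atp6v0d2 was higher at each time, at 3.03 (2.27 to 4.07), 1.87 (1.22 to 2.83) and 1.77 (1.26 to 2.49), where 24.3%, 35.6% and 15% of genes were higher. With TMM scaling Atp6v0d2 was 2.62, 1.45 and 1.64, so at 96 h it did not pass. Slc26a4 was lower at 96 h, at 0.364 (0.247 to 0.521), and passed no limit at 64 h or 28 d. The share of TAL-like nuclei moved with Slc9a3, with 9.15% without injury and 7.01%, 2.09% and 4.76% after IRI.

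A distal cluster led by Clu and Lcn2 also held acid-base transcripts. It held 10 GFP-positive nuclei without injury and 271, 340 and 101 after IRI in order of time, and was left without a segment name. Slc4a9 stood in it at 74.5 CPM (46.7 to 113) at 64 h and 142 CPM (89 to 215) at 96 h, on 22 UMIs each, and at 25.7 CPM (3.11 to 92.7) at 28 d, on 2 UMIs. The 10 GFP-positive nuclei without injury held 2 UMIs, or 219 CPM (26.5 to 790). Atp6v0d2 stood at 64.4, 45.2 and 77 CPM at the same times, and Slc26a4 at 3.39, 12.9 and 12.8 CPM. Of 34 nuclei with Slc4a9 over all libraries, 14 also held the TAL cotransporter Slc12a1 and 11 the proton pump subunit Atp6v0a4, where 44.6% and 24.2% of all 728 nuclei of the cluster held these genes. Slc26a4 was in 2 of the 34, and in 4 of the 728. Atp6v0a4 was a naming marker of intercalated-like nuclei. The other such markers looked up, Atp6v1b1, Atp6v1c2, Hepacam2, Kit and Clnk, were each in 0 of the 34, as was Foxi1. Each of these genes was in at most 0.962% of the 728. The cluster scored highest for DCT markers, at 2.92, and next for TAL markers, at 2.67, and was not set against those segments here. In PT-like nuclei, which it is less like, Slc4a9 stood at 1.35, 5.83 and 4.98 CPM after IRI in order of time.

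A wider list of 57 acid-base genes, of proton pump subunits, carbonic anhydrases, bicarbonate and proton carriers and their partners, gives the setting. GFP-positive against GFP-negative, 7 of 53 with enough UMIs were higher and 27 lower, where 10.6% of all genes were higher and 37.6% lower, with a median of −0.62 on the log2 scale against −0.32 over all genes. With TMM scaling 15 were higher and 20 lower. The proton pump subunits Atp6v1c1 and Atp6v1b2 were higher, at 2.09 and 2.03, and the scaffold gene Pdzk1 was higher, at 2.35. The intercalated subunits Atp6v1b1 (0.181) and Atp6v1c2 (0.144), which had served as naming markers, and the ammonia transporter Rhcg (0.172) were lower; these 3 were named after their values were seen.

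In PT-like nuclei 11 of 38 list genes were higher and 7 lower at 64 h, 14 of 38 higher and 3 lower at 96 h, and 8 of 40 higher and 2 lower at 28 d. Over all genes the shares were 25.2% higher and 13.2% lower, 37.5% and 14.8%, and 14.3% and 10% at these times. With TMM scaling these counts were 5 and 10, 6 and 8, and 5 and 2. Atp6v0b, a membrane-sector subunit of the proton pump, was higher at each time, at 1.91, 3.62 and 2.37, and with TMM scaling at 1.65, 2.71 and 2.18. Atp6v0a4, also a membrane-sector subunit, was 1.59 at 64 h, and 1.37 with TMM scaling, which is not past the limit. The carbonic anhydrases Car4 and Car14 were lower at each time, Car4 at 0.388, 0.584 and 0.41 and Car14 at 0.181, 0.247 and 0.492; this pair was chosen after its values were seen for 64 h and 96 h. In intercalated-like nuclei 4 of 18 list genes were higher and 1 lower at 64 h, 7 of 15 and 3 at 96 h, and 7 of 21 and 1 at 28 d, in sums that include the sub-cluster with PT transcripts. Over all genes 22.1%, 16.1% and 16.2% were higher and 21.9%, 44.9% and 16.8% lower. With TMM scaling the list counts were 3 and 1, 2 and 5, and 6 and 3.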

How the data were processed

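Nuclear polyA RNA of sorted nuclei was profiled in 5 libraries with 10x 3' chemistry. Per the submitters' processing notes, the tools were Cell Ranger 2.1, STAR 2.5.1b and bcl2fastq 2.17, the build mm10, with a pre-mRNA reference per the series' design text, so intronic reads count. The authors deposited UMI counts per gene and barcode, without normalization.

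Barcodes with under 200 genes or over 10% mitochondrial UMIs were dropped, 306 of 3508 at 96 h among them. Doublets were not called, and leaving out the 2% of barcodes with most UMIs was an alternative. Nuclei were clustered with scanpy 1.11.5 on 2000 variable genes, the 10 genes excluded, 30 components and Leiden resolution 1, and clusters were named from markers outside the set, by limits set after the data had been seen. Clusters that are unnamed or led by injury genes stayed out of the PT-like class. Intercalated-like nuclei were clustered again at resolution 0.5. The members and lists were chosen with earlier results of these data known.

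Counts were summed per segment and library and divided by their total. A gene was called higher or lower at a ratio of 1.5 or 0.667 with at least 20 UMIs over both sums, which is a rule of size, not a test. Intervals are exact (Poisson, binomial, and conditional binomial for ratios), at 95%, and 3 counts set the limit for a count of 0. TMM factors came from edgeR 4.0.16. The ratio step recovered known changes when tested on simulated data, which checks its arithmetic only and bears on no result here. Alternatives were other filters, scalings, resolutions, thinning to 400 or 800 UMIs and the nuclei included. The 10 genes were all described, and of the wider list at most 8 per comparison with most UMIs were named, apart from those said to be chosen later. Kept UMIs of the GFP-positive libraries numbered 7153971 without injury and 4500630, 1856284 and 3767530 after IRI in order of time, and those of the GFP-negative library 3846181.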

Additional observations from a re-analysis of the deposited data

How the results depend on the processing

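No paired analysis was possible because each group is 1 library, and no result comes from a test. The number of the 10 genes past the limits moved as follows. GFP-positive against GFP-negative, 2 were higher under TMM and under median-of-ratios scaling (1 in the main count). Over all nuclei at 96 h, 1 was higher with at least 400 genes per nucleus and at most 5% mitochondrial UMIs, and 0 under TMM and median-of-ratios scaling (2 in the main count); at 28 d, 2 were lower with the stricter filter (1 in the main count). In PT-like nuclei at 64 h, 1 was lower with the 10 genes kept for clustering, with the injury-led cluster added, under both other scalings and with no minimum of UMIs (0 in the main count), and 5 were higher with no minimum (2). At 96 h, 1 was higher with the stricter filter and under both scalings, 0 without the clusters mostly from 96 h, and 4 with no minimum (2), and 4 were lower under both scalings and with no minimum (2). At 28 d, 1 was higher without the 2% of barcodes with most UMIs and with the 10 genes kept, and 4 with no minimum (2). In intercalated-like nuclei at 64 h, 0 were higher and 2 lower without the sub-cluster with PT transcripts (3 and 1), and 3 were lower with no minimum. At 96 h, 0 were higher without that sub-cluster and under both scalings (3), and 1 was lower without the 2% of barcodes and at resolutions 0.5 and 2 (2). At 28 d, 0 were higher without the sub-cluster and 2 with no minimum (1), and 1 was lower without the 2% of barcodes (2).

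These ratios turned: Slc4a1 in PT-like nuclei at 96 h to 0.787 without the clusters mostly from 96 h, Slc4a9 in PT-like nuclei at 28 d to 0.865 without the 2% of barcodes, Foxi1 in intercalated-like nuclei at 64 h to 0.772 without the sub-cluster, Car2 there at 96 h to 0.912 under TMM and 0.857 under median-of-ratios, Rhbg there at 96 h to 1 under median-of-ratios, and Slc9a3 in TAL-like nuclei at 96 h to 1.77 with the stricter filter. The cause was not tested. Type A-like over type B and non-A-like, each called ratio kept its side of the limits under both filters tried.

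Thinned to 800 UMIs, GFP-negative intercalated-like nuclei held Slc4a9 in 58.4%, Atp6v0d2 in 63.6%, Atp6v1g3 in 49.4%, Slc4a1 in 25.3%, Car2 in 21.4% and Foxi1 in 13.6%. PT-like nuclei held Slc4a4 in 70.9% without injury and in 72.9%, 43.3% and 59.8% after IRI, and Slc9a3 in 6.05%, 3.66%, 5.44% and 4.17%. With log2(CPM + 10), 1 of the 3 most alike genes was shared for Slc4a1, Slc26a4 and Rhbg. Depth limits the library at 96 h most, where 23 intercalated-like nuclei held 27 Slc26a4 UMIs.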
